A study of Brassica rapa with 6 samples.

Results

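The sequences named miR170, miR171 and miR394 were followed in the leaf and the petiole of Chinese cabbage, a vegetable form of Brassica rapa in which a broad, fleshy petiole carries the blade of each leaf. Members were all entries of the normalized miRNA table whose names carry miR170, miR171 or miR394, and entries with the same mature sequence were counted once. This gave 19 sequences of 1011, drawn from 24 named entries of 1069. Of these, 13 belonged to miR170/miR171, which are treated as 1 family here, and 6 to miR394. The plants were wild type and grown in a greenhouse, with 3 small RNA libraries from leaf and 3 from petiole. No shoot meristem was sampled. Whether the 3 libraries of a tissue stem from different plants is not said in the labels. The p-values therefore cover the spread among these libraries alone, and that spread may be technical. No mRNA or tissue marker was used here, so the tissue labels were not checked against markers. In such bulk tissue, fewer cells that make a miRNA and less miRNA per cell cannot be told apart.

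A plant miRNA is cut from a hairpin precursor as a duplex of a 5p and a 3p strand, of which one is usually retained to guide the cleavage or silencing of matching mRNAs. In Arabidopsis the 3p strands of miR170 and miR171 target HAIRY MERISTEM genes, GRAS-type transcription factors that keep shoot meristem cells undifferentiated, while the 5p strand of one MIR171 precursor has been assigned a target of its own, the histone methyltransferase gene SUVH8. miR394, read from the 5p strand, targets the F-box gene LEAF CURLING RESPONSIVENESS, and in Arabidopsis it is made in the surface layer of the shoot meristem and acts on the stem cells beneath.

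The sequences of the main forms are shown because the results turn on their strands, ends and single-base differences. They are written 5′ to 3′ in DNA letters as in the deposited table, with the seed, bases 2 to 8, in capitals. The leading 3p forms of miR170/miR171 and the variants built on them were these:
bra-miR171e: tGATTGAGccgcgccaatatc
ath-miR170-3p_1ss12TC: tGATTGAGccgcgtcaatatc
vvi-miR171h_R+2_1ss3GA: tGATTGAGccgcgccaatatcct
lus-miR171g_R+2: tGATTGAGccgcgtcaatatcca
vvi-miR171h_2ss3GA13GA: tGATTGAGccgcaccaatatc
mtr-miR171b_L+1: cTGATTGAgccgcgtcaatatc
bra-miR171a: tTGAGCCGtgccaatatcacg
The 5p forms of miR170/miR171 with a value in all 6 libraries were these:
ath-miR170-5p: tATTGGCCtggttcactcaga
aly-miR171b-5p: aGATATTAgtgcggttcaatc
The main miR394 forms, the first 3 from the 5p side and the last from the 3p side, were these:
bna-miR394a: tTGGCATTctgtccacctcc
gma-miR394a-5p_L+1: cTTGGCATtctgtccacctcc
ghr-miR394a_L+2: aATTGGCAttctgtccacctcc
sly-miR394-3p_R+1_1ss7GT: aGGTGGTCatactgtcaacag

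In these names the prefix is the species of the matched miRNA, L and R give bases added at the 5′ and 3′ end, and ss gives substitutions against that match. Of the 19 sequences, 7 carried a substitution in the name. Against bra-miR171e, counted from its 5′ end, ath-miR170-3p_1ss12TC differed by C14T and vvi-miR171h_2ss3GA13GA by G13A, both outside the seed. The 23 nt forms vvi-miR171h_R+2_1ss3GA and lus-miR171g_R+2 held bra-miR171e and ath-miR170-3p_1ss12TC whole, with 2 bases added at the 3′ end, so the 5 forms shared the seed GATTGAG. mtr-miR171b_L+1, of 22 nt, held ath-miR170-3p_1ss12TC whole with 1 base added at the 5′ end, which moved its seed to TGATTGA. bra-miR171a began 3 bases further along than bra-miR171e and differed by C12T over the 18 bases they shared, counted on bra-miR171e. Its seed TGAGCCG was shared with gma-miR171c-3p_2ss19AT21AT and gma-miR171c-3p. The longer miR394 forms held bna-miR394a whole and added 1 or 2 bases at the 5′ end.

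Paired in silico, the strands fell into 2 sets. ath-miR170-5p formed 17 base pairs with bra-miR171e and 17 with ath-miR170-3p_1ss12TC, each time with the 2-base 3′ overhangs at both ends that a Dicer-type enzyme leaves on a miRNA duplex. aly-miR171b-5p formed duplexes of this kind with the 3 forms of the seed TGAGCCG, with 18 base pairs for gma-miR171c-3p_2ss19AT21AT and 17 each for gma-miR171c-3p and bra-miR171a, the most abundant of them. With bra-miR171e it formed 19 pairs but no 3′ overhang. The rare 5p form gma-miR171o-5p_2ss1AC17CG also formed 17 pairs with bra-miR171a, with 2-base 3′ overhangs at both ends. On the miR394 side, bna-miR394a and sly-miR394-3p_R+1_1ss7GT formed 14 pairs, with overhangs of 2 and 3 bases. Precursor sequences were not used here, so these pairings are descriptions and not assignments to a locus.

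The 6 libraries differed in total by tissue. Summed over the 1011 sequences, the authors' normalized counts came to 789728 ± 15787 per leaf library and 436475 ± 10506 per petiole library (SD, n = 3 each). They stood for 729593 to 771262 reads in leaf and 457195 to 474192 in petiole. Results are therefore given on the deposited scale and again after each library was scaled to the same total. Log2 differences are petiole minus leaf on log2(value + 1), tested with limma over all 601 sequences with a mean of at least 5, and called at a Benjamini-Hochberg adjusted p under 0.05. The median log2 difference over these 601 sequences was 0.18 on the deposited scale and 0.97 with equal totals. Each difference of a single sequence below is to be read against it. Over the 80 families whose sums were tested in the same way, the median was −0.77 on the deposited scale and 0.08 with equal totals. Differences of family sums are to be read against that median.

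The miR170/miR171 family was lower in petiole on both scales, by 3.50-fold on the deposited scale and 1.94-fold with equal totals. Its summed normalized count was 55730, 62119 and 57526 in the leaf libraries and 16641, 17227 and 16209 in the petiole libraries. Every petiole library lay below every leaf library. The means were 58458 ± 3295 and 16692 ± 511 (SD, n = 3 each), the log2 difference was −1.81 with a standard error of 0.05, and limma gave an adjusted p of 2.8e-07 over 80 families. With equal totals the means were 45376 ± 2151 and 23445 ± 234, the log2 difference was −0.95 ± 0.04 and the adjusted p 1.1e-06. The family held between 7.03% and 7.73% of each leaf total and between 3.78% and 3.85% of each petiole total, and it ranked 4 of 98 families in leaf and 10 in petiole. A lower family sum was common: 53.8% of the 80 families tested were called lower in petiole on the deposited scale and 38.8% with equal totals. Summed by name apart from miR171, the forms named miR170 went from 17492 ± 1419 in leaf to 4507 ± 243 in petiole (log2 difference −1.95, limma adjusted p 9.2e-07). The sum of the forms named miR171 went from 40966 ± 1993 to 12185 ± 299 (−1.75, limma adjusted p 1.8e-07). This split follows the names alone. Most of the miR170 sum was ath-miR170-3p_1ss12TC, at 16454 ± 1516 in leaf and 4001 ± 287 in petiole, which differs from bra-miR171e by 1 base. Its longer variants mtr-miR171b_L+1 and lus-miR171g_R+2 were counted in the miR171 sum.

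The miR394 family did not differ beyond the spread between libraries on the deposited scale, and was 1.87-fold higher in petiole with equal totals. Its summed normalized count was 4491, 5094 and 4806 in leaf and 4653, 5324 and 4884 in petiole, so the groups overlapped. The means were 4797 ± 301 and 4954 ± 341, and the log2 difference of 0.05 had a 95% interval from −0.13 to 0.22 (limma adjusted p 0.54). With equal totals they were 3724 ± 220 and 6954 ± 340 without overlap, a log2 difference of 0.90 ± 0.06 (limma adjusted p 1.2e-05). On the deposited scale 27.5% of the families were called higher in petiole, and with equal totals 48.8%. miR394 held 0.567% to 0.634% of each leaf total and 1.08% to 1.19% of each petiole total. The family ranked 19 in leaf and 16 in petiole. Its log2 differences lay above the medians over the 80 families, −0.77 on the deposited scale and 0.08 with equal totals.

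The 2 families can be set against each other within a library, where the scale cancels. bra-miR171e, the most abundant miR170/miR171 form, stood at 8.79, 8.54 and 8.27 times bna-miR394a in the leaf libraries and at 2.55, 2.26 and 2.34 times in the petiole libraries. All 3 petiole ratios lay below all leaf ratios. The mean ratio was 8.53 ± 0.261 in leaf and 2.38 ± 0.147 in petiole, with an exact two-sided permutation p of 0.1, the smallest that 3 against 3 libraries can give, and 0.25 after adjustment over the 5 exact tests made.

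**Figure D1:**
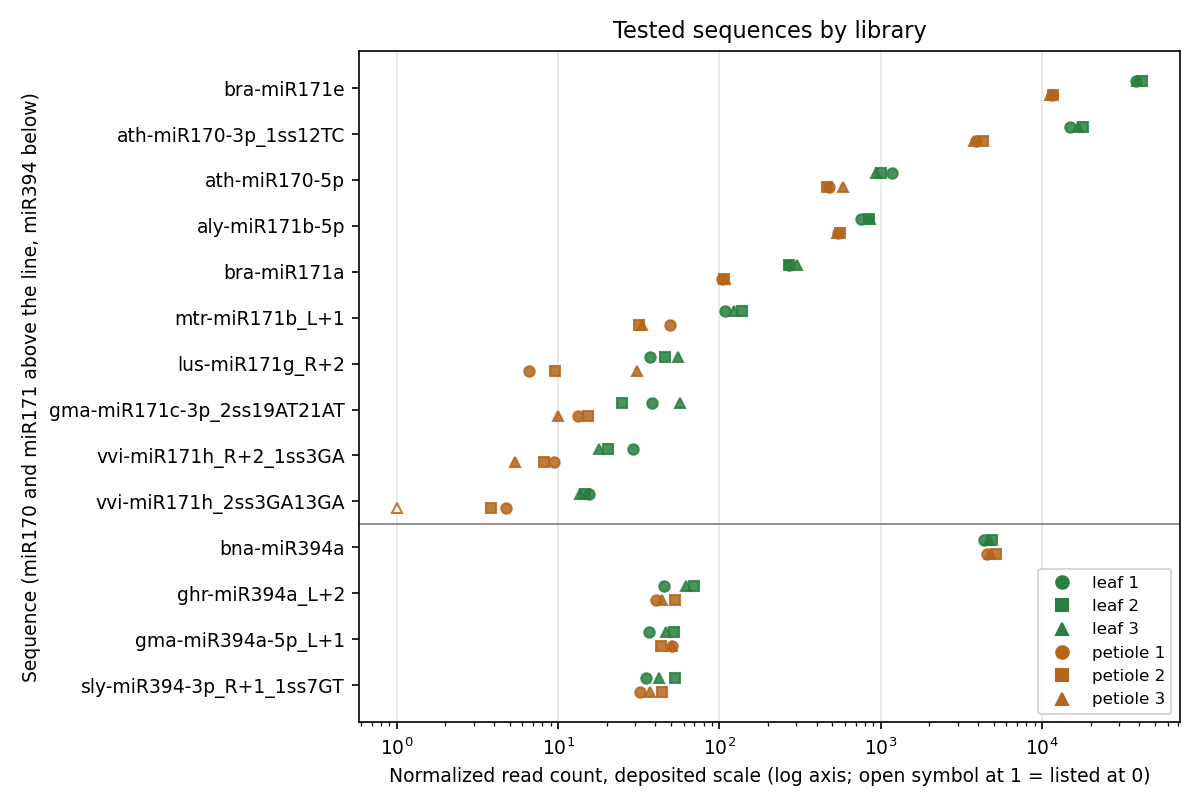
Normalized count on the deposited scale (log axis) of each of the 14 tested sequences in the 3 leaf (green) and 3 petiole (brown) libraries, 1 symbol per library. On this scale the petiole symbols of the 10 miR170/miR171 sequences sit left of all their leaf symbols, while those of the 4 miR394 sequences overlap with leaf. The 10 include vvi-miR171h_2ss3GA13GA, which passed the filter through leaf alone. With equal totals, 6 of the 10 lay wholly below leaf and 1 wholly above, and the 4 miR394 sequences lay wholly above. The equal-totals values are not drawn. The share of such separation among all tested sequences was not counted, so these counts are descriptions alone. With equal totals the median log2 difference over all 601 sequences was 0.97, and 53.4% were called higher in petiole.

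bra-miR171e, a 3p strand of miR170/miR171, was the 4th most abundant of all 1011 sequences in leaf and the 9th in petiole. Its normalized count was 38454, 41894 and 38494 in leaf and 11529, 11707 and 11133 in petiole. Every petiole value was below every leaf value. The means of 39614 ± 1974 and 11456 ± 294 differed 3.46-fold (log2 difference −1.79 ± 0.05, limma adjusted p 8.4e-07). With equal totals they were 30747 ± 1120 and 16093 ± 231, a 1.91-fold difference (−0.93 ± 0.04, limma adjusted p 5.8e-06). The difference was thus smaller but kept its direction.

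ath-miR170-3p_1ss12TC, the 3p form that carries C14T, was second in the family. Its normalized count was 14842, 17852 and 16668 in leaf and 3906, 4324 and 3773 in petiole. Again the tissues did not overlap. The means of 16454 ± 1516 and 4001 ± 287 differed 4.11-fold (log2 difference −2.04 ± 0.09, limma adjusted p 4.7e-06), and with equal totals 2.27-fold (−1.18 ± 0.08, limma adjusted p 3.1e-05).

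ath-miR170-5p, the strand that pairs with both of these forms, was called lower in petiole on the deposited scale and not called with equal totals. Its normalized count was 1180, 1004 and 931 in leaf and 475, 463 and 581 in petiole, with no overlap. The means of 1038 ± 128 and 506 ± 64.4 differed 2.05-fold (log2 difference −1.03 ± 0.12, limma adjusted p 0.00051). With equal totals the groups overlapped, at 806 ± 93.9 and 713 ± 104, and the log2 difference of −0.18 (95% interval −0.49 to 0.13) did not pass (limma adjusted p 0.24). After quantile normalization the log2 difference was −0.42 and did not pass either (limma adjusted p 0.066).

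aly-miR171b-5p, the other 5p strand, changed direction with the scale. This sequence was also listed as bra-MIR171d-p5 and bra-MIR171b-p5, the 5p sides of a pair of B. rapa precursors. Its normalized count was 750, 851 and 855 in leaf and 540, 557 and 535 in petiole, below leaf in every library. The means of 819 ± 59.2 and 544 ± 11.5 gave a log2 difference of −0.59 ± 0.07 (limma adjusted p 0.00053). With equal totals the means were 636 ± 50.2 and 764 ± 2.58, every petiole value was above every leaf value, and the log2 difference was 0.27 ± 0.07 (limma adjusted p 0.016). Both values were on the same side of the respective median over all sequences, 0.18 and 0.97, that is, below it.

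bra-miR171a, the most abundant of the 3p forms that pair with aly-miR171b-5p in this way, was lower in petiole on both scales. Its normalized count was 269, 270 and 302 in leaf and 104, 107 and 108 in petiole, without overlap. The means of 280.3 ± 18.4 and 106 ± 2.42 gave a log2 difference of −1.39 ± 0.08 (limma adjusted p 1.7e-05), and with equal totals −0.54 ± 0.09 (limma adjusted p 0.0024). mtr-miR171b_L+1, the form with 1 base more at the 5′ end, was read at 109, 138 and 122 in leaf and 49.2, 31.7 and 33.0 in petiole. Its log2 differences were −1.69 ± 0.20 (limma adjusted p 0.00045) and −0.85 ± 0.20 with equal totals (limma adjusted p 0.011), and the tissues did not overlap on either scale.

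The 4 other tested miR170/miR171 forms had leaf means between 14.6 and 46.1 and petiole means between 2.85 and 15.7. All 4 were called lower on the deposited scale and none with equal totals. gma-miR171c-3p_2ss19AT21AT had a log2 difference of −1.51 (limma adjusted p 0.0099) and vvi-miR171h_R+2_1ss3GA one of −1.44 (0.0081). lus-miR171g_R+2 was read at 37.3, 45.9 and 55.1 in leaf and 6.62, 9.59 and 30.7 in petiole. Petiole 3 was thus well above the other petiole libraries but still below leaf. Its call on the deposited scale (log2 difference −1.77, limma adjusted p 0.033) was lost when leaf 1, leaf 2, leaf 3, petiole 1 or petiole 2 was left out (adjusted p 0.058 to 0.108). vvi-miR171h_2ss3GA13GA was read at 15.6, 14.6 and 13.8 in leaf and 4.73, 3.84 and 0 in petiole, so it passed the filter on low values through leaf alone, and its fitted difference of −2.37 (limma adjusted p 0.029) depends on the value of 1 added. That call was lost without leaf 1, leaf 2 or leaf 3 (adjusted p 0.073 to 0.080) and with 0.5 added (0.052).

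In all, 10 of the 13 miR170/miR171 sequences passed the filter. On the deposited scale 10 of these 10 were called lower and 0 higher, beside 28.3% lower and 21.3% higher among all 601 sequences tested. With equal totals 4 were called lower, 1 higher and 5 not called, beside 17.8% lower and 53.4% higher among all. The median log2 difference of the 10 was −1.60 on the deposited scale and −0.78 with equal totals. These tallies are descriptions, since vvi-miR171h_2ss3GA13GA passed the filter through leaf alone and had to come out lower. Without it 9 of 9 were called lower on the deposited scale, and 4 lower, 1 higher and 4 not with equal totals, with medians of −1.51 and −0.70. Since several of the 10 are versions of the same 2 sequences, they are not independent of each other.

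The 3 other miR170/miR171 sequences were near the lower end of what the table lists, and were not tested. gma-miR171c-3p was read at 4.15, 0 and 7.41 in leaf and listed at 0 in petiole. mtr-MIR171h-p3_2ss20AG21CA, listed as both sides of a Medicago precursor, was read at 3.18 in leaf 3 and 3.31 in petiole 1. It does not resemble the rest: its closest member differed at 10 of 19 overlapping bases. gma-miR171o-5p_2ss1AC17CG was read at 5.21 in leaf 2, equal to 5 reads, and listed at 0 in the other 5 libraries. The miR394 forms ath-miR394b-3p_R+1 and bna-MIR394b-p3 had the same value in the same library and 0 elsewhere. Of the 1011 sequences, 68 were above 0 in 1 library alone, 8 of them in leaf 2.

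**Figure D2:**
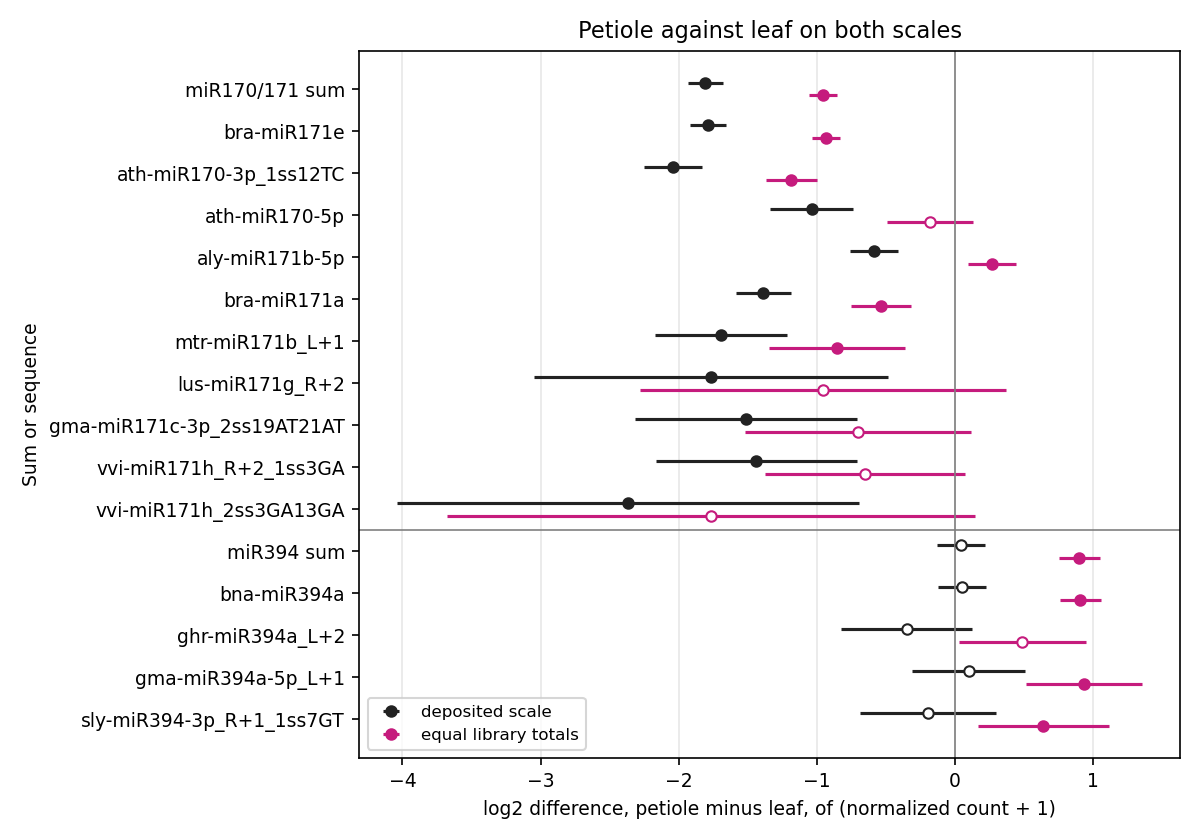
Log2 difference, petiole minus leaf, of each family sum and tested sequence, with its 95% interval, on the deposited scale (black) and with equal library totals (magenta); filled points passed the limma threshold. The miR170/miR171 sum lies at −1.81 and −0.95, the miR394 sum at 0.05 and 0.90, and aly-miR171b-5p passes on opposite sides of 0.

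Within miR394, bna-miR394a, the form of 20 nt, made up nearly the whole family. Its normalized count was 4374, 4908 and 4655 in leaf and 4529, 5184 and 4752 in petiole. The tissues overlapped. The means were 4646 ± 267 and 4822 ± 333, and the log2 difference of 0.05 (95% interval −0.12 to 0.23) did not pass (limma adjusted p 0.55). With equal totals they were 3607 ± 195 and 6769 ± 332 without overlap, 1.88-fold higher in petiole (log2 difference 0.91 ± 0.06, limma adjusted p 3.7e-05). It ranked 24 in leaf and 17 in petiole. Its log2 differences lay below the medians over all 601 sequences, 0.18 on the deposited scale and 0.97 with equal totals. Relative to the median sequence it was thus not higher in petiole on either scale. The family sum, of nearly the same values, lay above the family medians, so the reading depends on which median is used.

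The 3 minor miR394 forms had means between 37.8 and 59.3 in either tissue. gma-miR394a-5p_L+1 was read at 36.8, 52.6 and 46.6 in leaf and 50.6, 43.6 and 50.6 in petiole. ghr-miR394a_L+2 was read at 45.6, 69.8 and 62.5 in leaf and 40.6, 52.8 and 44.3 in petiole. sly-miR394-3p_R+1_1ss7GT, the 3p strand, was read at 35.3, 53.2 and 42.4 in leaf and 32.1, 44.1 and 37.1 in petiole. All 3 overlapped between the tissues, with log2 differences of 0.10, −0.35 and −0.19 in that order and limma adjusted p of 0.64, 0.19 and 0.45. With equal totals the first and the last passed, at 0.94 (limma adjusted p 0.0037) and 0.64 (0.025), and ghr-miR394a_L+2 did not, at 0.49 (0.057). The call of ghr-miR394a_L+2 was unsteady: without leaf 1 it was called lower on the deposited scale (−0.52, limma adjusted p 0.0493), and with equal totals and the replicate number as a block it was called higher (0.49, limma adjusted p 0.0366). Of the 4 tested miR394 sequences, of 6 in all, 0 were thus called on the deposited scale and 3 higher with equal totals, where 53.4% of all sequences were called higher. Their median log2 difference was −0.07 on the deposited scale and 0.77 with equal totals.

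The make-up of the miR170/miR171 sum does not depend on the scale. bra-miR171e took 69.0%, 67.4% and 66.9% of the sum in leaf and 69.3%, 68.0% and 68.7% in petiole, and the tissues overlapped (exact two-sided permutation p 0.3). The difference of 0.855 percentage points was 1.46 without leaf 1, 0.420 without leaf 3 and 0.535 without petiole 1. It dominated in all 6 libraries. ath-miR170-3p_1ss12TC took 26.6%, 28.7% and 29.0% in leaf and 23.5%, 25.1% and 23.3% in petiole, lower in every petiole library. Together these forms made up 95.6% to 96.2% of the sum in leaf and 92.0% to 93.1% in petiole. aly-miR171b-5p took 1.35%, 1.37% and 1.49% in leaf and 3.25%, 3.23% and 3.30% in petiole. The share of ath-miR170-5p was 2.12%, 1.62% and 1.62% in leaf and 2.86%, 2.69% and 3.58% in petiole, and that of bra-miR171a 0.483%, 0.435% and 0.524% against 0.623%, 0.624% and 0.668%. The shares of these 3 minor forms were higher in every petiole library than in any leaf library.

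**Figure D3:**
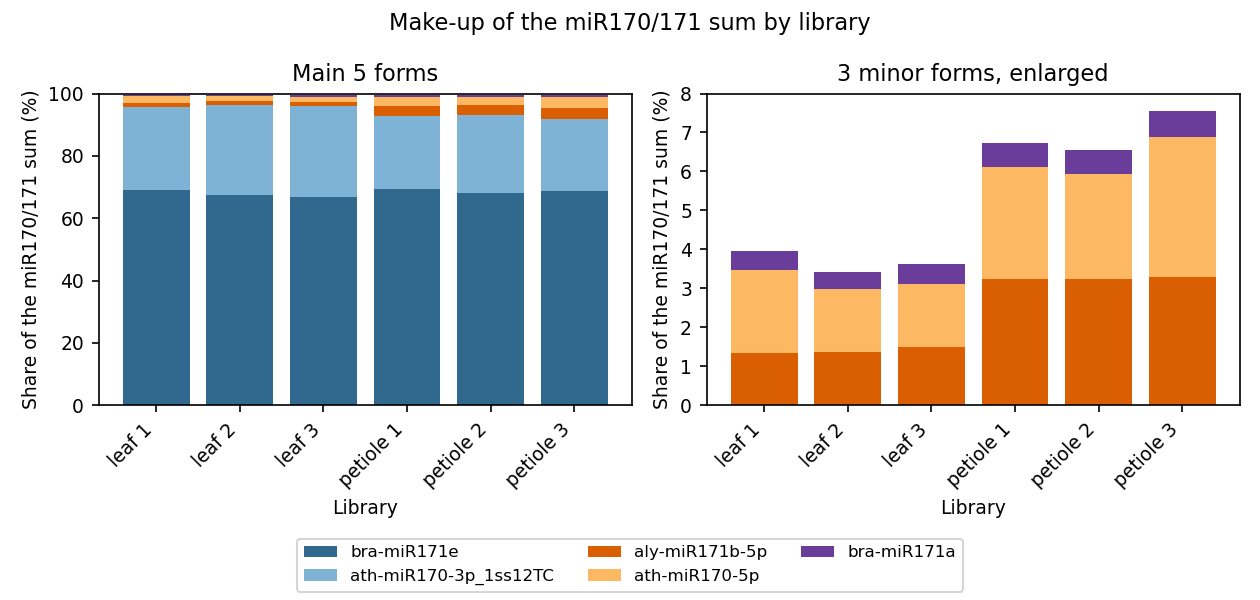
Share of each of the 5 main forms in the miR170/miR171 sum (%), by library; the right panel enlarges the 3 minor forms. bra-miR171e stays between 66.9% and 69.3% in all 6 libraries, while aly-miR171b-5p takes at most 1.49% in leaf and at least 3.23% in petiole.

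Each form was also tested over the leading form of its family, a test chosen after the data were seen, with limma on 246 forms of 64 families. In this test 30.5% of all forms were called higher and 22.4% lower in petiole relative to their leading form. Of the 9 miR170/miR171 forms, 3 were called higher and 1 lower relative to bra-miR171e. aly-miR171b-5p rose by a log2 difference of 1.20 ± 0.06 (limma adjusted p 2.2e-05), ath-miR170-5p by 0.75 ± 0.15 (0.0057) and bra-miR171a by 0.40 ± 0.09 (0.011). ath-miR170-3p_1ss12TC fell by 0.25 on the log2 scale (SE 0.07, limma adjusted p 0.031), a call that was lost without leaf 2, leaf 3, petiole 1 or petiole 3 (adjusted p 0.093 to 0.099). mtr-miR171b_L+1, with 0.10 (0.72), and the 4 rarer forms were not called. The 3 minor miR394 forms were not called over bna-miR394a either. The largest of their differences was −0.40 for ghr-miR394a_L+2 (limma adjusted p 0.057), which passed without leaf 1 (−0.53, adjusted p 0.012).

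The same differences show in plain ratios. bra-miR171e stood at 2.59, 2.35 and 2.31 times ath-miR170-3p_1ss12TC in leaf and at 2.95, 2.71 and 2.95 times in petiole. The 5p form ath-miR170-5p pairs in silico with both of these 3p forms. Against it, bra-miR171e stood at 32.6, 41.7 and 41.4 times in leaf and at 24.2, 25.3 and 19.2 times in petiole. Both sets of ratios were separate between the tissues. In the pairing of aly-miR171b-5p with bra-miR171a the order of the strands was the other way round: aly-miR171b-5p exceeded bra-miR171a in all 6 libraries, 2.78, 3.15 and 2.83 times in leaf and 5.21, 5.18 and 4.94 times in petiole. Thus the 5p strand was the rarer one beside bra-miR171e and the more abundant one beside bra-miR171a. This order holds for these pairings alone, since no locus was assigned. Against gma-miR171o-5p_2ss1AC17CG, read in leaf 2 alone at 5.21, bra-miR171a would be the more abundant strand.

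**Figure D4:**
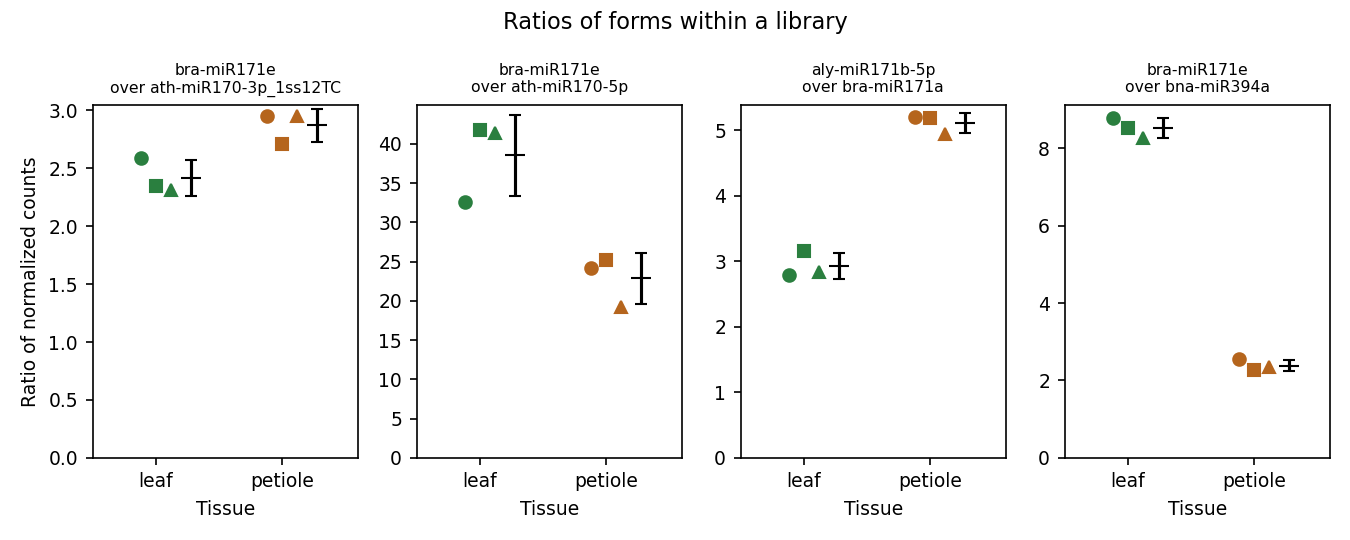
Ratio of normalized counts within a library for 4 pairs of forms, with 1 symbol per library and the mean ± SD (n = 3) beside it; each panel has its own axis from 0. The leaf and petiole symbols are separate in all 4 panels, and aly-miR171b-5p over bra-miR171a is higher in petiole (4.94 to 5.21) than in leaf (2.78 to 3.15).

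Summed by arm, the 3p side dominated miR170/miR171 and the 5p side miR394. The 5p side of miR170/miR171 held 3.46%, 2.99% and 3.10% of both sides in leaf and 6.11%, 5.92% and 6.88% in petiole. The petiole values were all above the leaf values. The log2 ratio of 5p over 3p was −4.93 ± 0.11 in leaf and −3.90 ± 0.12 in petiole, a difference of 1.03 with an exact two-sided permutation p of 0.1, the smallest possible, and 0.25 after adjustment. On the deposited scale both sides were lower in petiole without overlap, the 3p side at 56598 ± 3315 in leaf and 15641 ± 557 in petiole and the 5p side at 1859 ± 72.7 and 1051 ± 56.3. With equal totals the 3p side was still lower, at 43933 ± 2191 and 21967 ± 334, while the 5p side overlapped, at 1443 ± 43.7 and 1477 ± 105. In miR394 the 5p side held 98.8% to 99.2% in leaf and 99.2% to 99.3% in petiole, with overlap (difference of the log2 ratios 0.33, exact two-sided permutation p 0.2). bna-miR394a alone took 96.3% to 97.4% of the family in leaf and 97.3% to 97.4% in petiole (exact two-sided permutation p 0.4).

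By seed, the 5 forms with GATTGAG held nearly all of the 3p side, with a summed normalized count of 56151 ± 3317 in leaf and 15484 ± 556 in petiole. The 3 forms with TGAGCCG summed to 324 ± 36.9 and 119 ± 3.06, and mtr-miR171b_L+1, the form with TGATTGA, stood at 123 ± 14.6 and 37.9 ± 9.74. All 3 seed groups were lower in every petiole library than in any leaf library, on the deposited scale and with equal totals. Targets were not predicted here, so these are groups by sequence and not by target. Reads of near-identical forms may have been divided between entries, which touches single forms more than these sums.

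Other families whose targets act in the meristem, at organ boundaries or in leaf polarity went different ways. The list held miR156/miR157, which target SPL genes of phase change, miR164, which targets NAC boundary genes, miR165/miR166, which target class III HD-ZIP polarity genes, miR390, which triggers trans-acting siRNAs against auxin response factors, and miR396, which targets growth-regulating factors. Of its 43 tested sequences, 26 were called lower and 10 higher on the deposited scale, beside 28.3% and 21.3% of all 601 sequences. With equal totals 14 were called lower and 18 higher, beside 17.8% and 53.4% of all. Their median log2 difference was −0.78 and 0.03, above the medians of the tested miR170/miR171 forms on both scales. The family sums of miR156/miR157 and miR164 were called lower on both scales, with log2 differences of −1.37 and −0.52 for the first and −1.07 and −0.21 for the second. miR390 was called higher on both, at 1.99 and 2.85. miR165/miR166, at −0.64 and 0.21, and miR396, at −0.38 and 0.47, were called lower on the deposited scale and higher with equal totals. The miR170/miR171 sum, at −1.81 and −0.95, had the most negative log2 difference of these 5 families and the 2 described here on both scales.

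The sequences most like bra-miR171e over the 6 libraries were found by the root-mean-square distance between log2(value + 1) profiles, each centred on its own mean, among 178 sequences of other families with a mean of at least 50. They were ath-MIR159a-p3_1ss11CT at a distance of 0.0581, bol-miR398a-3p at 0.0874, the predicted PC-5p-3977_732 at 0.0902, the predicted PC-3p-433_3751 at 0.0975 and ath-miR164b-3p_1ss16AC at 0.1005. The nearest, ath-MIR159a-p3_1ss11CT, had a normalized count of 192 ± 13.9 in leaf and 56.9 ± 4.74 in petiole. Nearest to bna-miR394a were bra-miR160a-3p at 0.0634, PC-5p-10607_328 at 0.0744, bra-MIR9563a-p5_2ss2GA17CT at 0.0992, ptc-miR6478_R+4_1ss21GA at 0.109 and bra-miR168b-5p_1ss21CA at 0.114. bra-miR160a-3p had 442 ± 32.3 in leaf and 428 ± 39.4 in petiole. These likenesses rest on 6 libraries of 2 tissues and describe this table alone.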

How the data were processed

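Total RNA was made into small RNA libraries and sequenced on an Illumina instrument, and the program ACGT101-miR removed adapter dimers, low-complexity reads and reads of common structural RNAs and repeats, per the labels' protocols. The protocols speak of more libraries than the 6 used here. For the aligner, the genome build and the miRBase release no name is given in the sources used here. The deposited values are signal: per the file headers, normalized read counts. The rule behind that scaling was not found in the labels. Low values lay on steps of 1.04, 1.04 and 1.06 in leaf 1 to 3 and 0.945, 0.959 and 0.904 in petiole 1 to 3, taken as 1 read. Of the values under a normalized count of 60, 71.4% to 77.1% fell within 0.02 reads of a whole number of reads. When steps of 0.5 are allowed, 98.4% to 99.7% did. Whole counts could therefore not be taken back, and limma was used, not a count model. Between libraries of the same tissue, chi-square over its degrees of freedom ran from 3.40 to 8.50, above counting noise, so no library was a duplicate.

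Values were tested as log2(value + 1) in limma 3.58.1 under R 4.3.3, allowing a mean-variance trend, over sequences with a mean of at least 5, with Benjamini-Hochberg adjustment over all of them. A fold on this scale understates changes of low forms. The same fit was run on family sums, which drop arm, letter and species, leave out predicted sequences and join miR170 to miR171, miR157 to miR156 and miR165 to miR166. For equal totals the values of each library were divided by 1.26 to 1.31 (leaf) or 0.699 to 0.731 (petiole). Median-of-ratios factors computed on the deposited values were 0.995 to 1.04. Of the shares and ratios within a library, 5 were compared by exact permutation tests (Python 3.11.15, SciPy 1.17.1). These were the arm ratio and the leading form's share of each family, and bra-miR171e over bna-miR394a. The other shares and plain ratios are given as values and were not tested this way. Strands were paired with RNAduplex (ViennaRNA 2.7.2).

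Forms with a mean of at least 100 in either tissue, and the 4 forms listed as main ones, were to be given library by library, and the others by range, count or value. The list of other families was chosen by their known targets. Members and lists were chosen with earlier results of these data known. The arm was taken from the name or from the most similar form that carries one. A RefSeq gene table (CAAS_Brap_v3.01) lists 5 MIR171 genes; the build of the deposited data is not given, so no coordinates are stated.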

Additional observations from a re-analysis of the deposited data

How the results depend on the processing

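Alternatives covered the added value, the filter, the scale, the trend, the replicate block and each library left out; leaving out libraries on the equal-totals scale, the comparison over the leading form, miR170 summed apart and the tally without vvi-miR171h_2ss3GA13GA were added after seeing the data. The miR170/miR171 sum kept its direction and call under all of them, from −1.84 to −0.92. The count of members called lower, 10, was 6 with a mean of at least 50, where fewer were tested and all calls went from 298 to 156. It was 4 with equal totals, with and without the replicate block. Among all 601 sequences 28.3% were called lower on the deposited scale and 17.8% with equal totals. Members called higher, 0, were 4 with equal totals, 5 with equal totals and the replicate block and 1 after quantile normalization. The 4 were 1 of the 10 tested miR170/miR171 sequences and 3 of the 4 tested miR394 sequences, beside 53.4% of all 601. For the block and quantile settings the share over all sequences was not counted by direction. The miR394 sum became 0.90 on the equal-totals scale, with and without the block, and 0.66 by quantile normalization, and ranged from −0.0072 to 0.0902 with single libraries left out. aly-miR171b-5p turned to 0.27 on the equal-totals scale and to 0.0424 by quantile normalization, and with equal totals sly-miR394-3p_R+1_1ss7GT turned to 0.64 and ghr-miR394a_L+2 to 0.49, with and without the block. The cause was not tested. With single libraries left out, bna-miR394a ranged from −0.00029 to 0.10 and gma-miR394a-5p_L+1 from −0.0391 to 0.213; over the leading form, mtr-miR171b_L+1 ranged from −0.10 to 0.22 and gma-miR394a-5p_L+1 from −0.0495 to 0.17, and the members called lower, 1, from 0 to 2. That count was 2 with 5 added. The share of bra-miR171e, petiole minus leaf, was 0.855 percentage points, −4.05 with substituted forms left out and −2.68 with miR170 left out; both alternatives take ath-miR170-3p_1ss12TC out of the sum.

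The labels number the replicates alike in both tissues. Deviations of same-numbered libraries correlated at 0.0728, 0.00673 and 0.00759 over 601 sequences, and those of different-numbered libraries at −0.0615 to 0.0568. With 3 libraries per tissue, such values cannot decide whether same-numbered libraries share a plant or a batch. With the replicate block, 280 sequences and 10 members lower were called on the deposited scale. Values of a few reads limit the rare forms: a value of 0 was not read as absence.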
